A study of Homo sapiens with 27 samples.

Results

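The comparison described here set USB1 mutant hESCs against wild-type (WT) hESCs, and its members were the mature miRNAs that both groups' count tables listed: 1444 of the 1888 listed in either, after adaptor entries were dropped. The mutant group was 3 small RNA libraries of an established line of human embryonic stem cells, H1, carrying a disease-associated deletion of a single A in the coding sequence of USB1. The deletion was introduced with CRISPR/Cas9 and a donor oligonucleotide, and cells were seeded sparsely, picked by hand and sequenced. The WT group was 3 libraries of H1 hESCs with no such edit. Both groups were undifferentiated, carried no transgene and received no drug, and the 6 libraries were part of 27 in the series. The study calls the libraries of a group biological replicates. Whether they were separate cultures, and how many edited clones the mutant group represents, is not given in the sources used here. The p-values cover only the spread between libraries, which for the main test was estimated over all 15 hESC libraries of the series. H1 was kept on Matrigel or on growth-arrested mouse fibroblasts, and which of the 2 the libraries came from is not given in the sources used here.

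USB1 is a 3′ to 5′ RNA exonuclease best known for trimming the end of U6 small nuclear RNA, and its loss causes poikiloderma with neutropenia, a bone marrow failure syndrome. A miRNA hairpin is processed into a duplex of a 5p and a 3p arm, of which usually one is kept as the guide in Argonaute, and the bases 2 to 8 of the guide, the seed, select its target mRNAs. Nucleotides added to or removed from the 3′ end of a miRNA are among the signals that set how long it lasts. In human pluripotent cells the miRNA pool is dominated by the cluster of miR-302 and miR-367, and the cluster of miR-371 to miR-373 is another pluripotency cluster. Its arms miR-372-3p and miR-373-3p have the same seed as the miR-302 3p arms.

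The seeds grouped the miRNAs on which the results turned. Sequences are mature miRNAs from RefSeq on GRCh38.p14, which held a single mature entry for 889 of the 998 miRNAs tested and for 68 of the 74 called, and capitals mark the seed, bases 2 to 8. The first set shares the seed AAGUGCU, which 4 raised and 2 lowered miRNAs carried.
miR-302a-3p: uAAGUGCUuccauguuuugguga
miR-302b-3p: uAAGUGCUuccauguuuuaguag
miR-302c-3p: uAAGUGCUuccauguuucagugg
miR-302d-3p: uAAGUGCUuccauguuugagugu
miR-372-3p: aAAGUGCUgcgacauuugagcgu
miR-373-3p: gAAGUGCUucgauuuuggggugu
The second set shares AUUGCAC, the seed of 2 raised miRNAs and of relatives from the miR-302 and miR-17-92 clusters that were not called.
miR-32-5p: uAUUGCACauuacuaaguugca
miR-363-3p: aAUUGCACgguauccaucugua
miR-367-3p: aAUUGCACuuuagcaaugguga
miR-92a-3p: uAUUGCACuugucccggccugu
The third set holds arms of the miR-200b, miR-200a, miR-429 and miR-200c hairpins. The 3p arms shown share AAUACUG, and the 5p arms share AUCUUAC.
miR-200b-3p: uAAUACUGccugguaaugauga
miR-429: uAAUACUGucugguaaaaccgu
miR-200c-3p: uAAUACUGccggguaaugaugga
miR-200a-5p: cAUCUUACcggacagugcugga
miR-200b-5p: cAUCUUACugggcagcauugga
The last set shows other miRNAs whose calls are described in detail below, each with a seed that no other called miRNA with a RefSeq entry had.
miR-653-5p: gUGUUGAAacaaucucuacug
miR-489-3p: gUGACAUCacauauacggcagc
miR-30a-5p: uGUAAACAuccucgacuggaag
miR-30a-3p: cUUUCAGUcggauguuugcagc
miR-503-5p: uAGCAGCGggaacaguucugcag
miR-1-3p: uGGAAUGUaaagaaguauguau
let-7a-5p: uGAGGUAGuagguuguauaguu
miR-125b-5p: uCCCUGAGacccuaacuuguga
miR-135b-5p: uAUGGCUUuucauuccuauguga
miR-105-5p: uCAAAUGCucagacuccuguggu
miR-767-5p: uGCACCAUgguugucugagcaug
miR-625-3p: gACUAUAGaacuuucccccuca
miR-199a-3p and miR-199b-3p have the same mature sequence, so that counts under the 2 names cannot be assigned to a gene.
miR-199a-3p: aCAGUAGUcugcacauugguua

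The mutant libraries held 14614433 to 35734485 miRNA counts and the WT libraries 14709905 to 17359868, and the 10 most abundant miRNAs took 82.4 to 84.1% of them. Library 1 of each group stood apart. Over 426 well-counted miRNAs the chi-squared per degree of freedom between counts was 2027 and 1685 between mutant library 1 and mutant libraries 2 and 3, against 77.8 between mutant libraries 2 and 3. It was 517 and 541 for WT library 1, against 18.9 between WT libraries 2 and 3. Results are therefore also given without library 1 of each group, an alternative chosen after this was seen. The 9 hESC markers (arms of the miR-302 and miR-371 clusters) summed to 230768 to 397757 CPM (mutant) and 178508 to 192808 CPM (WT), where CPM in these marker sums is counts scaled to the same total in each library, while 6 blood markers summed to 7.78 to 52.2 CPM (mutant) and 10.02 to 20.4 CPM (WT). The 6 fibroblast markers, which feeder cells could carry, summed to 228 to 293 CPM (mutant) and 271 to 568 CPM (WT).

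Of the 998 miRNAs with enough counts for a test, 29 rose and 45 fell in the mutant at an adjusted p under 0.05, that is 2.91% and 4.51% of those tested. Levels of single miRNAs are given from here on as TMM-scaled CPM, written CPM, in which each library's total is first adjusted for differences in composition. The test was edgeR's quasi-likelihood test with the same TMM scaling, with the spread estimated over all 15 hESC libraries and p adjusted by Benjamini-Hochberg over the 998. The 29 that rose had a median log2 change of 1.07 and held a mean 30.8% of tested counts in the mutant and 19.5% in WT. The 4 miR-302 3p arms among them made up most of this share. The 45 that fell had a median of -1.47 and held 0.447% in the mutant and 1.45% in WT, and over all 998 the median was 0.04. The 3 libraries of each group did not overlap for 258 of the 998, or 25.9%, and single cases of this below are to be read against that share. The other 446 members were not tested, for want of counts or because another hESC group's table did not list them, and held at most 0.0157% of the counts of any library. Scaling by library totals in place of TMM gave 16 higher and 46 lower, and with the 6 libraries alone edgeR called 0 of 898 (149 at an unadjusted p under 0.05, smallest adjusted p = 0.101) where DESeq2 called 57.

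**Figure D1:**
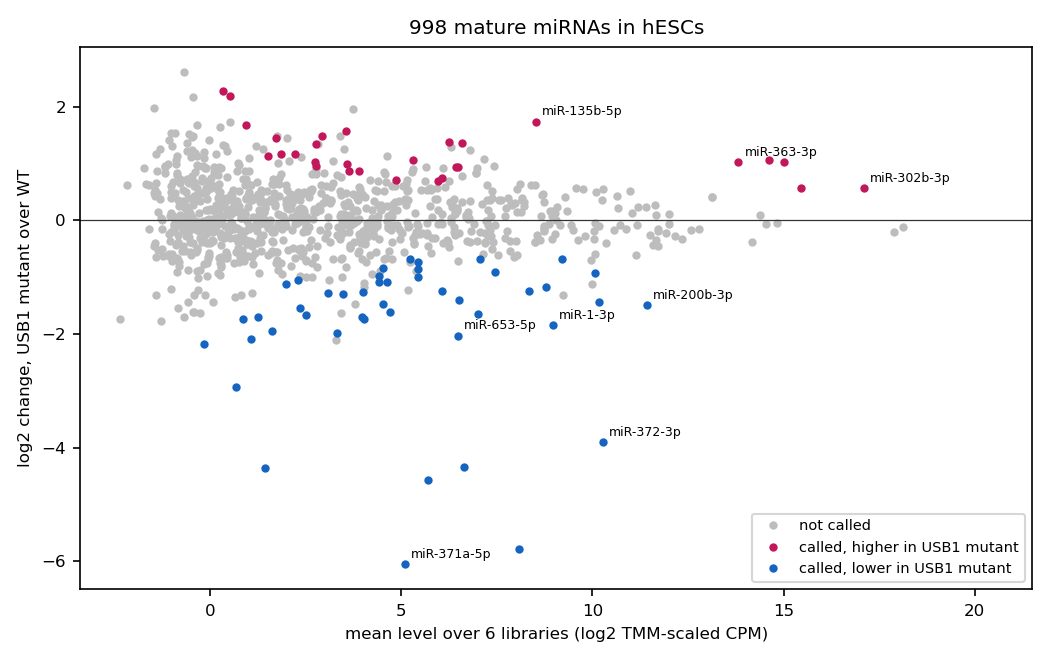
Each point is 1 of 998 mature miRNAs, with its mean level over the 6 libraries (log2 TMM-scaled CPM) on the horizontal axis and its log2 change, USB1 mutant over WT, on the vertical axis. Coloured points are the 29 called higher and the 45 called lower, and the lowest points are the miR-371 cluster, at -3.91 to -6.06.

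Calls lay among the better counted miRNAs. When the 998 were cut into 4 equal groups by mean level, 0.400% of the lowest group were called, then 5.62%, 9.64% and 14% of the highest, whose standard errors had a median of 0.20 against 0.57 in the lowest. Of the 74 calls 17 stayed under 8 CPM in both groups. Leaving out any 1 library kept 26 of the 74 calls: 6 that rose (miR-135b-5p, miR-556-5p, miR-625-3p, miR-363-3p, miR-105-5p and miR-767-5p) and 20 that fell. Without mutant library 1 the count was 38 (8 higher and 30 lower) and without WT library 3 it was 45 (9 higher and 36 lower). Without library 1 of both groups the change of all 74 kept its sign, and 37 stayed called, 6 of the 29 higher and 31 of the 45 lower.

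**Figure D2:**
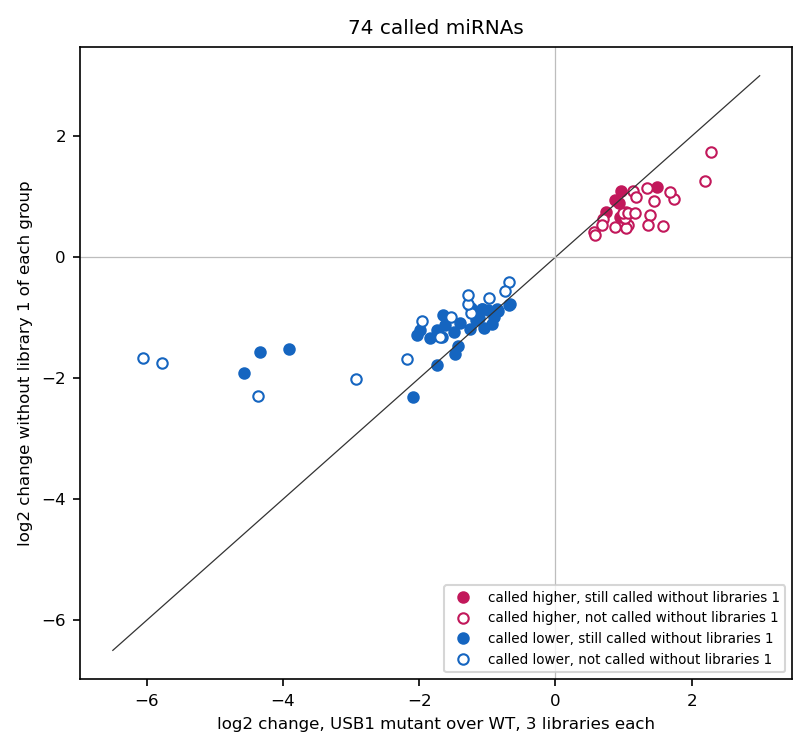
Each of the 74 called miRNAs is placed by its log2 change, USB1 mutant over WT, with all 6 libraries (horizontal) and without library 1 of each group (vertical), and filled points were still called. The line is equality: the 6 miR-371 cluster arms lie far off it, moving from between -6.06 and -3.91 to between -2.29 and -1.51, and every point keeps its sign.

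The 3p arms of miR-302a, b, c and d, which share the seed AAGUGCU, rose, and they are among the most abundant miRNAs of these cells. miR-302b-3p stood at 184434, 149596 and 168181 CPM in the mutant libraries, against 100364, 119767 and 118121 CPM in the WT libraries. It rose by 0.57 on the log2 scale (SE 0.16, edgeR adjusted p = 0.038), and the groups did not overlap. miR-302c-3p, at 72852, 32935 and 28644 CPM in the mutant libraries, against 21251, 22872 and 21337 CPM in the WT libraries, rose by 1.04 on the log2 scale (SE 0.27, edgeR adjusted p = 0.0251), with mutant library 1 far above the other mutant libraries. miR-302a-3p, at 55616, 23932 and 23460.5 CPM in the mutant libraries, against 16622, 16967 and 15643 CPM in the WT libraries, rose by 1.07 on the log2 scale (SE 0.27, edgeR adjusted p = 0.0235) with the same high library. miR-302d-3p rose by 0.58 on the log2 scale (SE 0.17, edgeR adjusted p = 0.0426). These hairpins sit together on the minus strand of chromosome 4 in exons of the noncoding gene MIR302CHG (MIR302D at chr4:112648004-112648071 to MIR302B at chr4:112648485-112648557, GRCh38.p14). Without library 1 of both groups the 4 changes were 0.42, 0.48, 0.54 and 0.37 for miR-302b, c, a and d, and none was called (edgeR adjusted p = 0.128 to 0.268). Without mutant library 1 alone, miR-302c-3p was at 0.49 (edgeR adjusted p = 0.102), miR-302a-3p at 0.52 (edgeR adjusted p = 0.0993) and miR-302d-3p at 0.37 (edgeR adjusted p = 0.188). Of the 6 fits that left out 1 library, miR-302b-3p was called in 1 and the others in 2.

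The same cluster's other arms were not called. Of its 10 arms 4 rose, where 2.91% of all tested rose, and 6 were not called, 9 had a positive change and the median was 0.59, against 0.04 over all tested. The cluster took 61.1, 44.7 and 44.6% of counts in the mutant libraries, against 48.7, 42.8 and 41.6% in the WT libraries. These shares overlapped between the groups (exact two-sided permutation p = 0.5). miR-302a-5p, the most abundant arm of the cluster, had 201723, 225630.2 and 246959.9 CPM in the mutant libraries, against 282372, 238188 and 254047 CPM in the WT libraries, a change of -0.20 (SE 0.14, edgeR adjusted p = 0.404). The 3p arm of the MIR302A hairpin took 21.6, 9.59 and 8.68% of that hairpin's counts in the mutant libraries, against 5.56, 6.65 and 5.80% in the WT libraries. The 3 mutant shares lay above the 3 WT shares, and how often arm shares did not overlap over all hairpins was not counted. miR-367-3p, which uses the other seed AUUGCAC, had 145, 66.7 and 56.3 CPM in the mutant libraries, against 49.8, 48.6 and 43.2 CPM in the WT libraries, a change of 0.92 (SE 0.28, edgeR adjusted p = 0.0509) that missed the threshold.

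The cluster of miR-371a, miR-371b, miR-372 and miR-373, here called the miR-371 cluster, whose 3p arms miR-372-3p and miR-373-3p carry the seed of miR-302, fell in all 6 tested arms, where 4.51% of all tested fell. miR-372-3p had 183, 148 and 135 CPM in the mutant libraries, against 6181, 405 and 402 CPM in the WT libraries. Every mutant library lay below every WT library, and WT library 1 was more than an order of magnitude above the other WT libraries. It fell by 3.91 on the log2 scale (SE 0.95, edgeR adjusted p = 0.0279). miR-373-3p, at 4.85, 3.61 and 4.20 CPM in the mutant libraries, against 271, 15.1 and 14.3 CPM in the WT libraries, showed the same pattern, and so did miR-371a-3p, at 11.6, 7.92 and 8.70 CPM in the mutant libraries, against 523, 23.99 and 25.1 CPM in the WT libraries. The 6 changes ran from -3.91 to -6.06, with a median of -4.47 and edgeR adjusted p of 0.0204 to 0.0283. Without WT library 1 and mutant library 1 they ran from -1.51 to -2.29. miR-372-3p was then at -1.51 (edgeR adjusted p = 0.022), miR-373-3p at -1.92 (edgeR adjusted p = 0.00692) and miR-371a-3p at -1.57 (edgeR adjusted p = 0.00119), while miR-371a-5p, miR-371b-3p and miR-371b-5p were not called (adjusted p = 0.0575 to 0.103). Without WT library 1 alone the changes were between -1.40 and -1.95, and miR-371b-5p was not called (edgeR adjusted p = 0.131). Leaving out any 1 mutant library lost all 6 calls (edgeR adjusted p of up to 0.139, for miR-371a-5p). DESeq2 on the 15 libraries gave no adjusted p for 5 of the arms and called the other, miR-371b-5p. The hairpins lie within chr19:53787675-53788773 (GRCh38.p14). MIR371B lies on the minus strand opposite MIR371A on the plus strand, and strand use in counting is not given in the sources used here. Mature miRNAs that are reverse complements had near-equal levels, such as miR-374b-5p and miR-374c-3p at means of 89.1 and 89.7 CPM in WT. Reads were thus not told apart by strand in that pair, and the arms of MIR371A and MIR371B cannot be taken as separate measurements.

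Seen by seed, the AAGUGCU miRNAs as a whole took 39.8, 23.6 and 23.1% of all miRNA counts in the mutant libraries, against 19.2, 19.3 and 17.9% in the WT libraries. The difference in means was 10.05 percentage points, and 4.56 without mutant library 1. The 3 libraries of each group did not overlap, and the exact two-sided permutation test gave p = 0.1, the smallest that 3 against 3 allows. The lowered miR-372-3p and miR-373-3p were a small part of this pool, since the miR-371 cluster took 0.0218, 0.0161 and 0.0138% of counts in the mutant libraries, against 0.929, 0.0477 and 0.0452% in the WT libraries. Its difference of -0.323 percentage points was -0.029 without WT library 1. The C19MC relatives miR-520a-3p to miR-520e-3p and miR-302e, also with this seed, were not called.

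**Figure D3:**
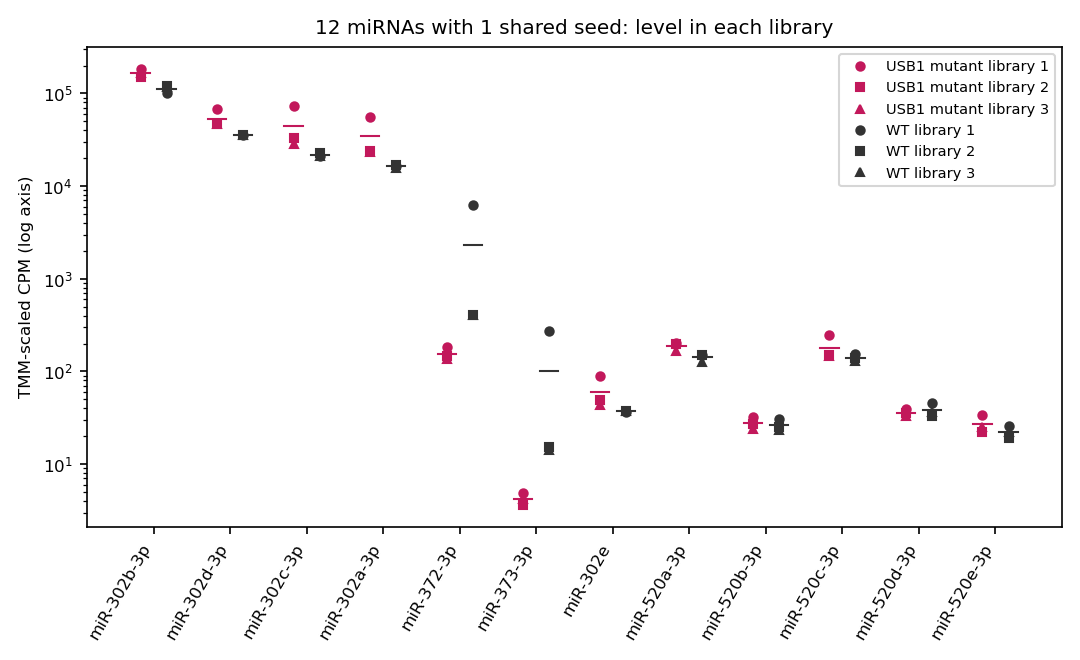
The level of the 12 tested miRNAs with the seed AAGUGCU is given per library as TMM-scaled CPM on a log axis, USB1 mutant left of WT for each, with 1 symbol per library number and a line at the mean. The 4 abundant miR-302 3p arms lie higher in the mutant, and miR-372-3p and miR-373-3p lie lower, with WT library 1 at 6181 CPM for miR-372-3p.

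The miR-17-92 cluster and its paralogs, growth-promoting clusters that MYC can induce, gave 4 rises among 26 arms, where 2.91% of all tested rose. Of the 11 arms of miR-17-92 2 rose, with a median of 0.59, and of the 15 arms of the miR-106a-363 and miR-106b-25 clusters 2 rose, with a median of 0.52. The 26 arms took 7.37, 6.69 and 5.89% of counts in the mutant libraries, against 6.30, 5.86 and 5.59% in the WT libraries. These shares overlapped between the groups (exact two-sided permutation p = 0.2). miR-363-3p, an AUUGCAC miRNA of the X-linked cluster (MIR363 at chrX:134169378-134169452, minus strand), had 22798, 18651 and 16546 CPM in the mutant libraries, against 6204, 11189 and 11163 CPM in the WT libraries. It rose by 1.02 on the log2 scale (SE 0.22, edgeR adjusted p = 0.0111), and WT library 1 was the lowest. miR-19a-3p had 176, 77.7 and 78.04 CPM in the mutant libraries, against 30.9, 50.4 and 45.1 CPM in the WT libraries, and rose by 1.39 on the log2 scale (SE 0.35, edgeR adjusted p = 0.0231) with mutant library 1 highest. miR-18b-5p, at 35.8, 10.1 and 7.50 CPM in the mutant libraries, against 5.53, 5.76 and 6.56 CPM in the WT libraries, rose by 1.58 on the log2 scale (SE 0.44, edgeR adjusted p = 0.0352). miR-19b-1-5p, a low passenger arm at 7.47, 4.12 and 2.92 CPM in the mutant libraries, against 1.57, 1.71 and 2.04 CPM in the WT libraries, rose by 1.45 on the log2 scale (SE 0.32, edgeR adjusted p = 0.0111). Without library 1 of both groups miR-363-3p stood at 0.65 (edgeR adjusted p = 0.0543) and the other 3 at 0.52 to 0.93, none called. Without mutant library 1 alone miR-19a-3p was at 0.88 (edgeR adjusted p = 0.119), miR-18b-5p at 0.56 (edgeR adjusted p = 0.285) and miR-19b-1-5p at 0.999 (edgeR adjusted p = 0.0576).

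Other abundant members of these clusters did not pass the test. miR-92a-3p, with 26114, 31015 and 28647 CPM in the mutant libraries, against 34228, 26740.2 and 27176 CPM in the WT libraries, had a change of -0.04 (SE 0.16, edgeR adjusted p = 0.911), and the groups overlapped. Among the 6 tested AUUGCAC miRNAs, miR-363-3p and miR-32-5p rose, where 2.91% of all tested rose. miR-32-5p, from an intron of TMEM245 on chromosome 9 (chr9:109046229-109046298, minus strand), had 240.3, 94.9 and 81.4 CPM in the mutant libraries, against 40.1, 65.4 and 56.7 CPM in the WT libraries, a rise of 1.36 on the log2 scale (SE 0.38, edgeR adjusted p = 0.0352), while its 3p arm was not called. Without mutant library 1 miR-32-5p was at 0.70 (edgeR adjusted p = 0.252), and its call was lost in 4 of the 6 fits that left out 1 library. The 6 took 6.12, 5.96 and 5.10% of counts in the mutant libraries, against 5.88, 5.04 and 4.86% in the WT libraries (exact two-sided permutation p = 0.2).

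The miR-200 family, which keeps cells epithelial by repressing ZEB1 and ZEB2, fell in arms of its chromosome 1 cluster. Of 9 arms 4 fell, where 4.51% of all tested fell, and 5 were not called, with a median of -0.61. miR-200b-3p had 1003, 1428 and 1907 CPM in the mutant libraries, against 4304, 3791 and 4042 CPM in the WT libraries. It fell by 1.48 on the log2 scale (SE 0.20, edgeR adjusted p = 0.000985), the smallest p of the comparison, and kept its call without any 1 library. Its partner arm miR-200b-5p, at 5.31, 8.52 and 8.47 CPM in the mutant libraries, against 30.5, 21.3 and 20.7 CPM in the WT libraries, fell by 1.70 on the log2 scale (SE 0.29, edgeR adjusted p = 0.00266). miR-429, with the seed of miR-200b-3p, had 132, 111 and 121 CPM in the mutant libraries, against 220.4, 236 and 224 CPM in the WT libraries and fell by 0.90 on the log2 scale (SE 0.14, edgeR adjusted p = 0.00213). MIR200B and MIR429 lie at chr1:1167104-1169087 on the plus strand, in no annotated host gene.

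miR-200a-5p, from the same chromosome 1 cluster, had 90.2, 195 and 293 CPM in the mutant libraries, against 446, 451 and 474 CPM in the WT libraries and fell by 1.25 on the log2 scale (SE 0.34, edgeR adjusted p = 0.0311), a call that was lost in 5 of the 6 fits that left out 1 library. The chromosome 12 members were not called. miR-200c-3p, which shares the seed of miR-200b-3p, had 2486, 2659 and 2675 CPM in the mutant libraries, against 3467, 3477 and 3566 CPM in the WT libraries. Its libraries did not overlap, and the change of -0.43 (SE 0.13, edgeR adjusted p = 0.0509) just missed the threshold. The family took 0.423, 0.429 and 0.453% of counts in the mutant libraries, against 0.939, 0.820 and 0.808% in the WT libraries (exact two-sided permutation p = 0.1, the smallest possible).

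Several miRNAs that share a transcript fell together. In an intron of CALCR, the calcitonin receptor gene, MIR653 (chr7:93482760-93482855) and MIR489 (chr7:93483936-93484019) gave 3 tested arms that all fell, where 4.51% of all tested fell. miR-653-5p had 27.00, 31.9 and 46.9 CPM in the mutant libraries, against 241, 91.6 and 99.4 CPM in the WT libraries. It fell by 2.03 on the log2 scale (SE 0.33, edgeR adjusted p = 0.00223), and miR-653-3p from the opposite arm, at 7.995, 6.41 and 8.32 CPM in the mutant libraries, against 41.8, 16.7 and 17.1 CPM in the WT libraries, by 1.74 on the log2 scale (SE 0.33, edgeR adjusted p = 0.00465). miR-489-3p, at 3.01, 4.06 and 5.02 CPM in the mutant libraries, against 26.9, 10.3 and 10.5 CPM in the WT libraries, fell by 1.98 on the log2 scale (SE 0.37, edgeR adjusted p = 0.00465). WT library 1 was the highest WT library for all 3, and without library 1 of each group miR-653-5p was at -1.28 (edgeR adjusted p = 0.00333) and miR-489-3p at -1.21 (edgeR adjusted p = 0.0275).

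On the X chromosome, miR-503-5p, a miR-15/16 relative that restrains the cell cycle, had 11.9, 13.3 and 13.6 CPM in the mutant libraries, against 60.7, 28.7 and 29.5 CPM in the WT libraries and fell by 1.62 on the log2 scale (SE 0.26, edgeR adjusted p = 0.00213). Its neighbours miR-450b-5p and miR-424-3p fell by 0.85 on the log2 scale (SE 0.17, edgeR adjusted p = 0.00738) and by 1.28 on the log2 scale (SE 0.32, edgeR adjusted p = 0.0231), and so did miR-542-3p, by 1.25 on the log2 scale (SE 0.22, edgeR adjusted p = 0.00274). Without WT library 1 miR-424-3p was at -0.82 (edgeR adjusted p = 0.118). MIR450B, MIR503 and MIR424 lie within chrX:134540185-134546711 on the minus strand. miR-424-5p, miR-450a-5p and miR-450a-2-3p had changes of -0.76 (SE 0.38), -0.32 (SE 0.26) and -0.93 (SE 0.50) and were not called. Of the 7 tested miR-15/16 family members miR-503-5p was the 1 called, where 7.41% of all tested were called.

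The hairpins MIR1298 and MIR1911, in introns of HTR2C, a serotonin receptor gene on the X chromosome, fell in their lower arm. miR-1298-3p had 8.91, 13.9 and 13.9 CPM in the mutant libraries, against 17.7, 40.95 and 43.7 CPM in the WT libraries and fell by 1.47 on the log2 scale (SE 0.30, edgeR adjusted p = 0.00716), here with WT library 1 the lowest WT library. miR-1911-3p, at 0.524, 0.873 and 0.975 CPM in the mutant libraries, against 1.25, 5.001 and 4.08 CPM in the WT libraries, fell by 2.09 on the log2 scale (SE 0.46, edgeR adjusted p = 0.0111). The higher arms, miR-1298-5p and miR-1911-5p, had changes of -0.61 (SE 0.35) and -0.997 (SE 0.38) and were not called (edgeR adjusted p = 0.303 and 0.117).

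The miR-30 family is made from several hairpins in different places of the genome, and its called arms came from the pair of hairpins in the noncoding gene LINC00472 on chromosome 6. miR-30a-5p had 261, 252 and 299 CPM in the mutant libraries, against 691, 544 and 593 CPM in the WT libraries, and fell by 1.17 on the log2 scale (SE 0.18, edgeR adjusted p = 0.00212). Its other arm miR-30a-3p, at 35.2, 54.8 and 61.5 CPM in the mutant libraries, against 153, 114 and 133 CPM in the WT libraries, fell by 1.40 on the log2 scale (SE 0.20, edgeR adjusted p = 0.00151). miR-30c-2-3p, an arm that identifies the MIR30C2 hairpin of the same gene, had 3.74, 6.44 and 9.45 CPM in the mutant libraries, against 20.8, 14.1 and 12.98 CPM in the WT libraries and fell by 1.29 on the log2 scale (SE 0.33, edgeR adjusted p = 0.0231). By contrast miR-30c-5p, which 2 hairpins produce, had a change of -0.09 (SE 0.16, edgeR adjusted p = 0.791), and miR-30b-5p, miR-30d-5p and miR-30e-5p were not called either. The difference between family members was not tested. miR-30c-2-3p was not called without library 1 of both groups (-0.78 (edgeR adjusted p = 0.198)).

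**Figure D4:**
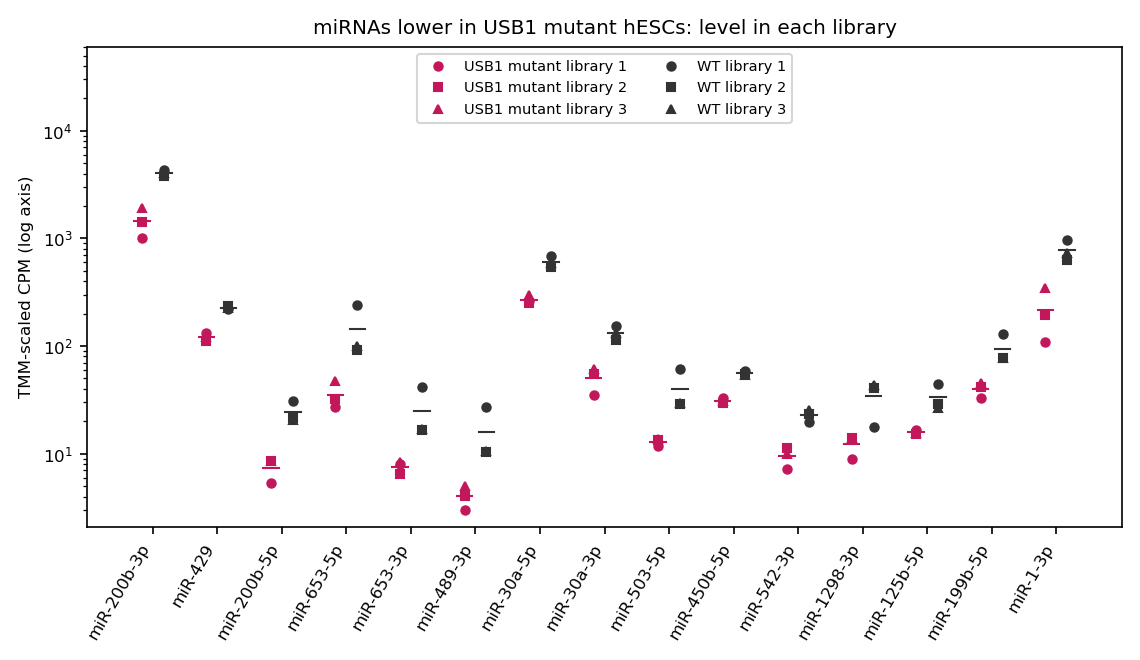
TMM-scaled CPM (log axis) in each library for 15 lowered miRNAs, grouped by shared hairpin or transcript from left to right, with USB1 mutant left of WT and a line at each mean. The mutant symbols lie below the WT symbols for all 15, and WT library 1 is often the highest, as for miR-653-5p at 241 CPM.

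Of the 5 miRNAs the study followed for their part in blood development, 4 could be tested, and 2 fell, where 4.51% of all tested fell. miR-125b-5p, which acts in blood stem cells and restrains p53, had 16.4, 15.1 and 15.7 CPM in the mutant libraries, against 44.7, 28.7 and 26.8 CPM in the WT libraries. The mutant libraries lay within a narrow band below every WT library, the fall was 1.08 on the log2 scale (SE 0.22, edgeR adjusted p = 0.00726), and the call was kept without any 1 library. The passenger arm of 1 of its hairpins, miR-125b-2-3p, at 0.459, 1.72 and 1.05 CPM in the mutant libraries, against 3.85, 2.79 and 4.37 CPM in the WT libraries, fell by 1.70 on the log2 scale (SE 0.43, edgeR adjusted p = 0.0235), a call lost in 3 of the 6 fits that left out 1 library and without library 1 of both groups (edgeR adjusted p = 0.112). The passenger arm of another, miR-125b-1-3p, was not called (-0.49 (SE 0.29, edgeR adjusted p = 0.305)). Of 5 opposite arms tested for the followed miRNAs 1 fell, where 4.51% of all tested fell. miR-199a-3p had 15.3, 12.2 and 13.9 CPM in the mutant libraries, against 40.1, 21.6 and 25.5 CPM in the WT libraries, without overlap, and fell by 1.08 on the log2 scale (SE 0.24, edgeR adjusted p = 0.0111), and miR-199b-3p, the same sequence under another name, fell by 0.97 on the log2 scale (SE 0.27, edgeR adjusted p = 0.0343). The call of miR-199b-3p was lost in 5 of the 6 fits that left out 1 library and that of miR-199a-3p in 1, without WT library 1. miR-125a-5p and miR-142-5p were not called, at 199, 162 and 207 CPM in the mutant, against 257, 234 and 213 CPM in WT for miR-125a-5p and 0.786, 1.41 and 0.375 CPM in the mutant, against 4.50, 1.14 and 1.24 CPM in WT for miR-142-5p. miR-223-3p was at 4, 9 and 3 counts in the mutant libraries, against 4, 5 and 2 counts in the WT libraries. These undifferentiated cells gave few counts for it and for miR-142-5p.

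Among other miRNAs of the blood lineages, miR-146a-5p, which dampens innate immune signalling, had 64.4, 64.5 and 59.2 CPM in the mutant libraries, against 351, 115 and 124 CPM in the WT libraries and fell by 1.65 on the log2 scale (SE 0.35, edgeR adjusted p = 0.0111). It was at -0.95 (edgeR adjusted p = 0.0263) without WT library 1, the highest, and was not called without mutant library 1 (edgeR adjusted p = 0.0657). miR-486-3p, the passenger arm of an erythroid hairpin, had 23.1, 30.3 and 32.8 CPM in the mutant libraries, against 56.5, 54.2 and 61.2 CPM in the WT libraries and fell by 0.99 on the log2 scale (SE 0.20, edgeR adjusted p = 0.00666). Of 14 tested blood lineage miRNAs 2 fell, where 4.51% of all tested fell, and 12 were not called, and the median was -0.63. miR-181d-5p and miR-181c-3p, from a hairpin pair at chr19:13874699-13875011 in an intron of NANOS3, fell by 0.84 on the log2 scale (SE 0.19, edgeR adjusted p = 0.0119) and by 1.05 on the log2 scale (SE 0.24, edgeR adjusted p = 0.0146). miR-193a-5p fell by 1.12 on the log2 scale (SE 0.27, edgeR adjusted p = 0.0204).

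Single miRNAs of the muscle and neural lists fell, and the lists as a whole were mixed. miR-1-3p, a muscle miRNA, had 109.9, 194 and 346 CPM in the mutant libraries, against 969, 634 and 738 CPM in the WT libraries and fell by 1.85 on the log2 scale (SE 0.34, edgeR adjusted p = 0.00465). The other muscle miRNAs tested, miR-133a-3p, miR-206 and miR-499a-5p, were not called, and of the 4 changes 2 were positive. miR-9-5p, a neural miRNA, had 640.0, 743 and 837 CPM in the mutant libraries, against 834, 1684 and 1708 CPM in the WT libraries and fell by 0.93 on the log2 scale (SE 0.24, edgeR adjusted p = 0.0251), although WT library 1 overlapped the mutant, and its call was lost in 4 of the 6 fits that left out 1 library. Of 7 neural miRNAs tested miR-9-5p was the 1 called, where 7.41% of all tested were called. Of the 7 changes 3 were positive and the median was -0.21, with miR-124-3p at 0.35 (SE 0.24). The fibroblast miRNA miR-199b-5p, at 33.03, 41.6 and 45.1 CPM in the mutant libraries, against 129, 76.7 and 77.5 CPM in the WT libraries, fell by 1.24 on the log2 scale (SE 0.23, edgeR adjusted p = 0.00465), whereas miR-143-3p and miR-145-5p, abundant in fibroblasts, had changes of -0.18 (SE 0.48) and -0.18 (SE 0.34). Of the 9 fibroblast miRNAs tested 3 fell, where 4.51% of all tested fell, and 6 were not called, with a median of -0.49. The summed fibroblast markers given above overlapped between the groups, and their part in the fall of miR-199a-3p, miR-199b-3p and miR-199b-5p was not tested. In bulk RNA, fewer cells of a type and less RNA per cell cannot be told apart.

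Of the let-7 family, which promotes differentiation and opposes LIN28, 1 of 9 members fell, where 4.51% of all tested fell. let-7a-5p had 342, 708 and 816 CPM in the mutant libraries, against 801, 1823 and 2405 CPM in the WT libraries. Library 1 was the lowest in each group, so that WT library 1 lay among the mutant libraries, and the fall was 1.43 on the log2 scale (SE 0.34, edgeR adjusted p = 0.0204). Without library 1 of both groups it was -1.47 (edgeR adjusted p = 0.000401). The call was lost in 3 of the 6 fits that left out 1 library, without mutant library 1 (edgeR adjusted p = 0.099) and without WT library 2 or 3. The family median was -0.38, with 8 of 9 changes negative, and the family took 0.0588, 0.103 and 0.103% of counts in the mutant libraries, against 0.111, 0.220 and 0.272% in the WT libraries (exact two-sided permutation p = 0.1, the smallest possible). Reads of near-identical let-7 members can be split between names by the aligner.

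Among the remaining falls, miR-326 (an ARRB1 intron), miR-31-5p, miR-28-3p, miR-455-3p, miR-516a-5p, miR-3117-3p, miR-2682-5p, miR-509-3p, miR-5091 and miR-3529-5p had log2 changes between -0.67 and -2.92 with edgeR adjusted p of 0.00738 to 0.0396. Of these, miR-28-3p was the most abundant, with 320.2, 465 and 566 CPM in the mutant libraries, against 791, 681 and 697 CPM in the WT libraries, and its call was lost in 5 of the 6 fits that left out 1 library. Without WT library 1 miR-326 was at -1.02 (edgeR adjusted p = 0.118) and miR-3117-3p at -1.21 (edgeR adjusted p = 0.0388). miR-2682-5p, the largest of these falls, was then at -1.98 (edgeR adjusted p = 0.118). miR-31-5p was called in 1 of the 6 fits that left out 1 library. miR-326, miR-2682-5p, miR-516a-5p and miR-3529-5p were called in 3 of them and miR-509-3p in 4. miR-455-3p, from an intron of COL27A1, had 113, 93.6 and 99.8 CPM in the mutant libraries, against 156, 165 and 169 CPM in the WT libraries, without overlap, while its higher arm miR-455-5p was not called (-0.08 (SE 0.19, edgeR adjusted p = 0.833)). From C19MC, a primate-specific placental cluster whose median was 0.06, miR-516a-5p was the 1 called of 59 tested, where 7.41% of all tested were called.

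Among the rises outside the pluripotency clusters, miR-135b-5p, which targets APC, was the largest that kept its call without any 1 library. It had 1009.7, 369.5 and 327 CPM in the mutant libraries, against 153, 184 and 174 CPM in the WT libraries. Mutant library 1 was well above the rest, and the groups did not overlap. It rose by 1.74 on the log2 scale (SE 0.37, edgeR adjusted p = 0.0111), its other arm miR-135b-3p rose by 0.70 on the log2 scale (SE 0.17, edgeR adjusted p = 0.0204), and miR-135b-5p was at 1.02 (edgeR adjusted p = 0.0212) without mutant library 1 and at 0.96 (edgeR adjusted p = 0.0575) without library 1 of both groups. miR-135b-3p was called in 3 of the 6 fits that left out 1 library, and not without library 1 of both groups (edgeR adjusted p = 0.0511). The hairpin lies at chr1:205448302-205448398, minus strand, in introns of LEMD1 and BLACAT1.

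miR-105-5p and miR-767-5p, from an intron of GABRA3 on the X chromosome, a GABA receptor subunit gene that also counts among cancer-testis genes, rose evenly. miR-105-5p had 111, 127 and 115 CPM in the mutant libraries, against 55.4, 64.2 and 64.95 CPM in the WT libraries, a rise of 0.93 on the log2 scale (SE 0.15, edgeR adjusted p = 0.00223). miR-767-5p had 77.7, 90.04 and 83.9 CPM in the mutant libraries, against 47.2, 50.8 and 52.6 CPM in the WT libraries, a rise of 0.74 on the log2 scale (SE 0.14, edgeR adjusted p = 0.00573). In both, the libraries of a group lay close together, and without library 1 of both groups the changes were 0.90 (edgeR adjusted p = 0.00333) and 0.75 (edgeR adjusted p = 0.00692). The other 2 tested arms of these hairpins had positive changes and were not called.

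Both arms rose of the MIR625 hairpin, in an intron of the fucosyltransferase gene FUT8 (chr14:65471102-65471186), and of MIR556, in an intron of NOS1AP (chr1:162342546-162342640). miR-625-3p had 62.98, 53.6 and 45.3 CPM in the mutant libraries, against 17.7, 30.00 and 29.5 CPM in the WT libraries and rose by 1.07 on the log2 scale (SE 0.23, edgeR adjusted p = 0.0101). miR-625-5p rose by 1.17 on the log2 scale (SE 0.27, edgeR adjusted p = 0.0131). miR-556-5p had 12.9, 11.6 and 8.996 CPM in the mutant libraries, against 2.71, 4.49 and 4.74 CPM in the WT libraries and rose by 1.49 on the log2 scale (SE 0.27, edgeR adjusted p = 0.00421), and miR-556-3p rose by 0.99 on the log2 scale (SE 0.24, edgeR adjusted p = 0.0204). Of the 6 fits that left out 1 library, miR-625-5p was called in 4 and miR-556-3p in 3. Without library 1 of both groups miR-625-5p, miR-556-3p and miR-625-3p were not called (edgeR adjusted p = 0.153, 0.101 and 0.0543).

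miR-708-3p, at 107, 131 and 105 CPM in the mutant libraries, against 30.2, 78.1 and 70.3 CPM in the WT libraries, rose by 0.95 on the log2 scale (SE 0.26, edgeR adjusted p = 0.0337), and miR-576-3p, from an intron of SEC24B, rose by 0.69 on the log2 scale (SE 0.20, edgeR adjusted p = 0.0396). miR-550a-5p rose by 0.87 on the log2 scale (SE 0.19, edgeR adjusted p = 0.0111), and miR-550b-2-5p, from the opposite strand of the same sites, by 2.29 on the log2 scale (SE 0.64, edgeR adjusted p = 0.0339), so that reads of the pair may not have been told apart. Without WT library 1 miR-708-3p was at 0.61 (edgeR adjusted p = 0.0672), and without mutant library 1 miR-550b-2-5p was at 1.38 (edgeR adjusted p = 0.259). The calls of these 2 were each lost in 4 of the 6 fits that left out 1 library, and that of miR-576-3p in 5. From the imprinted 14q32 cluster 2 of 15 tested miRNAs rose, where 2.91% of all tested rose: miR-381-3p and miR-409-3p, both under 12 CPM in every library, with a list median of 0.44. Each was called in 2 of the 6 fits that left out 1 library. Without library 1 of both groups neither was called (edgeR adjusted p = 0.154 and 0.0884). The other rises were miR-7704, which overlaps an exon of HOXD1, miR-548ao-3p, miR-548x-5p, miR-9903, miR-3195 and miR-1277-5p, at changes of 0.88 to 2.19 and under 27 CPM in every library. Of these, miR-7704 was at 0.57 (edgeR adjusted p = 0.184) and miR-1277-5p at 1.18 (edgeR adjusted p = 0.243) without mutant library 1. All of these other rises were called in only 2 or 3 of the 6 fits that left out 1 library. miR-548x-5p has the same mature sequence as miR-548aj-5p and miR-548g-5p.

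The 2 arms of a hairpin come from the same transcript, although a mature miRNA that several hairpins produce pools their counts. Both arms were tested for 222 hairpins. The higher arm (by mean level) rose for 14 (6.31%) and fell for 14 (6.31%). The lower arm rose for 7 (3.15%) and fell for 12 (5.41%), where 2.91% of all tested miRNAs rose and 4.51% fell. Hairpins with the same 2 arms were counted once. A mature miRNA with different partner arms entered more than once, as miR-125b-5p did in MIR125B1 and MIR125B2, and miR-509-3p in MIR509-1 and MIR509-3. For 9 hairpins both arms were called, in the same direction each time: MIR125B2, MIR200B, MIR30A, MIR371A, MIR371B and MIR653 fell, and MIR135B, MIR556 and MIR625 rose. MIR371A and MIR371B are opposite strands of the same site, so their calls cannot be taken as separate. Both calls held without any 1 library for MIR200B, MIR30A and MIR653, and in the other hairpins at least 1 arm lost its call in some of these fits. At least 1 arm was called for 38 hairpins, and in 35 of them both changes had the same sign, against 148 of all 222. Across the 222 hairpins, which share the 6 libraries and are not replicates, the changes of the 2 arms had a Pearson r of 0.66 and a Spearman rho of 0.49, and r was 0.50 over the 220 left without the miR-371 cluster hairpins.

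**Figure D5:**
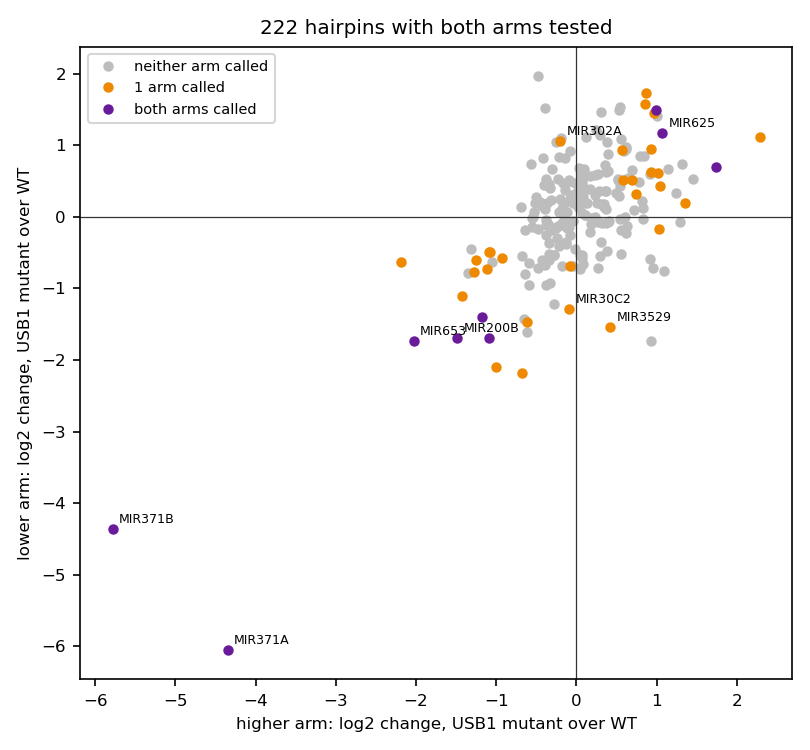
Each point is 1 of 222 hairpins with both arms tested, placed by the log2 change, USB1 mutant over WT, of its higher arm (horizontal) and lower arm (vertical). The 9 hairpins with both arms called lie at the lower left and upper right, and MIR302A, MIR30C2 and MIR3529 show a called lower arm beside a higher arm near 0 or of opposite sign. Counts of the higher arm of MIR3529 may be miR-7 reads.

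In 3 of the 38 hairpins the signs of the arms were opposite. In MIR302A the 3p arm rose beside a 5p arm at -0.20. In MIR3529 the low 5p arm, at 1.70, 2.53 and 3.67 CPM in the mutant, against 10.6, 6.08 and 6.05 CPM in WT, fell by 1.54 on the log2 scale (SE 0.38, edgeR adjusted p = 0.0216), beside a 3p arm at 0.42 (SE 0.22). That 3p arm, miR-3529-3p, is the reverse complement of miR-7-5p. They averaged 7660 and 7699 CPM in WT, with log2 changes of 0.42 and 0.40. Counts of miR-3529-3p may thus be miR-7 reads, and the MIR3529 values cannot be read as arms of the same hairpin. In MIR548X the 5p arm rose beside a 3p arm at -0.17 (SE 0.63). In MIR455 the lower arm took 16.6, 14.9 and 15.02% of the hairpin's counts in the mutant libraries, against 27.4, 19.96 and 19.7% in the WT libraries. In MIR625 and MIR653 the lower arm's share overlapped between groups, at a mean of 10.5 and 18.2% in the mutant and 10.1 and 14.96% in WT. Arm shares were taken for a few hairpins only, so they have no background share to be read against.

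Length, GC content and the last base of the called miRNAs are given as a description, with no test. The 42 lowered miRNAs with a RefSeq sequence had a median length of 22 bases and a median GC content of 50%, against 22.5 bases and 43.5% for the 26 raised and 22 bases and 50% for all 889. The last base of the annotated sequence was A in 11 of the 42 lowered (26.2%), in 7 of the 26 raised (26.9%) and in 166 of the 889 (18.7%). It was G in 16.7% of the lowered, 34.6% of the raised and 30.03% of all. These counts are a description of the annotated ends, and the count tables do not hold the ends of the reads.

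Of all tested miRNAs 7.41% were called, and 4 lists held no call. No member of the 13 tested Drosha-independent miRNAs (median 0.08), the 5 p53-induced miR-34 arms (median 0.06), the 4 endoderm miRNAs (median 0.09) or the 3 from GABRE introns (median 0.10) was called by edgeR. Of these 25 miRNAs 6 had an unadjusted p under 0.05, against 237 (23.7%) of all 998, and DESeq2 called 1, miR-34c-5p. The 10 most abundant miRNAs over the 6 libraries held 4 of the calls, the miR-302 3p arms. Of the others, miR-148a-3p was lowest in library 1 of each group, with 14.1, 30.1 and 31.2% of counts in the mutant libraries, against 24.05, 30.6 and 32.3% in the WT libraries. miR-26a-5p, at 1.44, 1.67 and 1.45% in the mutant libraries, against 2.17, 2.04 and 2.02% in the WT libraries, did not overlap and missed the threshold (-0.37 (SE 0.14, edgeR adjusted p = 0.102)).

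The uninduced iUSB1 line, mutant hESCs that carry an inducible USB1 transgene kept without doxycycline, gives another 3 mutant libraries, set against the same WT libraries, so that the 2 comparisons share their controls. Values follow for a few of the called miRNAs only, with no tally over the rest. miR-200b-3p averaged 1446 CPM in the mutant, 2326 CPM in the uninduced line and 4046 CPM in WT. miR-30a-5p averaged 271 CPM in the mutant, 276 CPM in the uninduced line and 609 CPM in WT. miR-105-5p averaged 118 CPM in the mutant, 130.2 CPM in the uninduced line and 61.5 CPM in WT. miR-653-5p averaged 35.3 CPM in the mutant, 34.6 CPM in the uninduced line and 144 CPM in WT. Against WT, the uninduced line's own edgeR changes were -0.80 for miR-200b-3p, -1.14 for miR-30a-5p, 1.08 for miR-105-5p and -2.06 for miR-653-5p, with adjusted p of 0.000927 to 0.0299. For miR-135b-5p it was 0.95, at 331, 230.1 and 428 CPM in the uninduced libraries, and was not called (adjusted p = 0.182).

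Loss of USB1 was also studied in K562, an established leukaemia line, as knockout (KO) against control cells, 3 libraries each, and the difference of the 2 effects was tested over the 12 libraries. Of 892 miRNAs 28 (3.14%) were called for a difference, and 9 of these were among the 61 hESC calls that could be tested in both lines. The 61 were chosen by their change in the same hESC libraries that enter the difference. The 9 can therefore not be set against the 3.14%. In that fit 37 (4.15%) miRNAs were called for KO against control in K562, among them 6 of the 61. In K562 the median change was -0.39 for the 26 raised miRNAs and -0.66 for the 35 lowered, where the median of all 892 was -0.14.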

How the data were processed

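Total RNA of H1 hESCs was made into small RNA libraries with a Lexogen kit. Per the submitters' processing notes and the study's methods, the authors used cutadapt 2.5 for adapters, Bowtie2 2.2.9 for alignment against miRBase and SAMtools 1.3.1, and they deposited raw counts per mature miRNA, 1 column per library. A table holds a miRNA only if its first library counted it, so an unlisted miRNA has no known count in the others. No genome build enters these counts, and loci are from RefSeq and GENCODE on GRCh38. Near-identical mature sequences can share reads, and so can mature sequences that are reverse complements.

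The test was edgeR 4.0.16 quasi-likelihood (R 4.3.3) with TMM scaling, robust dispersion and filterByExpr (minimum count 10, minimum total 15), fitted over the 15 libraries of the 5 hESC groups without a replicate term, after removing miRNAs not listed in all 5 tables (1251 were listed). Calls needed an adjusted p (Benjamini-Hochberg) under 0.05. DESeq2 1.42.0, other scalings and filters, a replicate block and left-out libraries were alternatives. The effects in hESCs and K562 were compared over 12 libraries. Shares of counts were compared by exact two-sided permutation (scipy 1.17.1). Scripts were tested on simulated data.

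Named were every called miRNA, other arms of its hairpin, the 10 most abundant, the study's hematopoietic miRNAs, list members and shared seed families. Members and lists were chosen with earlier results of these data known. Per-library values are given mainly for miRNAs of at least 8 CPM on average in 1 group. The 2 tables of PARN knockdown in K562 were not used here.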

Additional observations from a re-analysis of the deposited data

Results flagged for a closer look

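The difference between the USB1 mutant effect in hESCs and the USB1 knockout effect in K562, fitted over 12 libraries with edgeR, was called for 9 of the 61 hESC calls tested in both lines. These 61 were chosen by their change in the same hESC libraries, which favours such calls among them. All values are log2, and a positive one means that the change in hESCs was the higher of the 2. The largest were in the 14q32 miRNAs miR-381-3p, at 5.15 (adjusted p = 2.71e-06), and miR-409-3p, at 4.93 (adjusted p = 0.000218). miR-381-3p had 11.1, 16.2 and 15.5 CPM in knockout K562, against 208, 228 and 169.7 CPM in control K562, while it rose in hESCs. The hESC calls of miR-381-3p and miR-409-3p were each kept in 2 of the 6 fits that left out 1 hESC library. Neither was kept without library 1 of both hESC groups (edgeR adjusted p = 0.154 and 0.0884).

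miR-9-5p, a neural miRNA, differed by -2.91 (adjusted p = 0.00219). It had 1346, 1146 and 598 CPM in knockout K562, against 331, 241 and 220.0 CPM in control K562, and fell in hESCs. miR-30a-5p differed by -1.47 (adjusted p = 0.0287), with a fall in hESCs and an uncalled change of 0.29 in K562. The raised miR-135b-5p (2.17), miR-9903 (1.80), miR-625-3p (1.76), miR-550a-5p (1.40) and miR-105-5p (1.36) had uncalled changes of -0.44 to -0.71 in K562 and adjusted p for the difference of 0.0206 to 0.0388. The hESC calls of miR-9-5p and miR-9903 were each kept in 2 of the 6 fits that left out 1 hESC library. That of miR-550a-5p was kept in 4 and those of the others in this paragraph in all 6. Knockout K562 library 3 held 1530929 counts, against 9472475 and 9794669 in the other knockout libraries, and its part in these values was not tested beyond leaving it out.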

How the results depend on the processing

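The count of 74 calls was 62 to 90 with RLE size factors, library totals, DESeq2 on the 5 groups, no filter, a CPM minimum or a dispersion fit without robust weights. It was 0 with edgeR on the 6 libraries alone (149 at an unadjusted p under 0.05). Entering every miRNA listed in both tables left the same 898 after the filter and so the same fit. DESeq2 on the 6 libraries called 57, of which 56 were among the 74. edgeR's calls thus rested on a spread estimated with the other hESC groups. Leaving out 1 library gave 38 (mutant library 1) to 87 (mutant library 3) calls, and the count was 52 without both libraries 1. The share called higher, 39.2%, was 25.8% with library totals, 20% without WT library 3, 17.3% without both libraries 1 and 54.5% without mutant library 2.

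With a replicate block, edgeR gave 76 calls, 31 higher and 45 lower, and 67 of the 74 were kept. The 7 not called were miR-18b-5p, miR-19a-3p, miR-32-5p, miR-371a-3p, miR-371a-5p, miR-371b-3p and miR-372-3p, at adjusted p of 0.0505 to 0.111. The numbers were not used as pairs: deviations of libraries with the same number correlated at 0.22, 0.01 and 0.33 over 426 miRNAs. No block was fitted for the difference between lines, since the names of the control K562 columns do not show which control sample each belongs to. That difference was called for 28 miRNAs, for 48 with DESeq2, for 13 with library totals and for 13 to 29 when 1 library was left out.

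No called miRNA changed direction under any alternative run. Among the uncalled ones named, without both libraries 1 the log2 change was 0.18 for miR-143-3p, 0.057 for miR-148a-3p, -0.33 for miR-30b-5p and 0.15 for miR-92a-3p, each of opposite sign. Leaving out 1 library spanned 0 for miR-124-3p (-0.028 to 0.53), miR-143-3p (-0.37 to 0.18), miR-145-5p (-0.48 to 0.25), miR-148a-3p (-0.38 to 0.21), miR-206 (-0.045 to 0.64), miR-30b-5p (-0.36 to 0.36), miR-30c-5p (-0.22 to 0.024), miR-455-5p (-0.30 to 0.013) and miR-92a-3p (-0.11 to 0.066). Among miRNAs under about 1.21 CPM, the lowest of 4 equal groups, 1 of 250 was called, and the part of depth in this was not tested. No share of counts changed direction, and the difference in the miR-302 cluster's share, 5.77 percentage points, ran from 0.275 (without mutant library 1) to 8.55 percentage points when 1 library was left out. With all 6 libraries the groups overlapped in this share (exact two-sided permutation p = 0.5).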
